A study of Danio rerio with 58 samples.

Results

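Cells from the floor of the dorsal aorta were compared with cells from its roof in zebrafish embryos at 28 hours post fertilization (hpf). The comparison took every cell labelled DA floor at that stage (12 cells) and every cell labelled DA roof (10 cells), so it held 22 of the 58 cells of the study. The cells were taken by label, with no cut on a measured value, but the comparison was chosen with earlier results of these data known. All embryos carried Tg(flk1:eGFP) and Tg(flk1:NLS-Eos), a green reporter and a nuclear photoconvertible Eos reporter driven by flk1, the receptor gene now called kdrl. Eos was converted from green to red in the floor of the vessel for the floor cells and in its roof for the roof cells, and trunk cells with red Eos were picked by hand after dissociation. Each picked cell gave 1 Smart-seq2 library of polyA RNA, read as 150 bp paired ends. The labels call all of these cells endothelial. They do not say which embryo a cell came from, so cells of a region could not be treated as replicates and no p-value was computed: a region is a single sample here.

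The dorsal aorta is the main artery of the embryonic trunk. Some endothelial cells of its floor leave the vessel wall and become blood stem and progenitor cells, a process called the endothelial-to-hematopoietic transition. This transition depends on the transcription factors runx1 and gata2b and also involves gfi1aa and myb. Roof cells do not take this path and keep an arterial character, which rests on vascular endothelial growth factor and Notch signalling. Primitive red cells form nearby in the trunk and express gata1a, heme synthesis genes and embryonic globins.

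Total counts ranged from 4339995 to 8254178 in floor cells and from 3630613 to 5574794 in roof cells. Each cell was therefore thinned without replacement to 3500000 reads, the reads of a region were summed, and levels are given as counts per 1000000 reads (CPM) of that sum. At this depth a floor cell had reads in 2216 to 7341 genes (median 5941) and a roof cell in 3940 to 6707 (median 5274.5). Mitochondrially encoded genes took a median of 2.18% of the counts in floor cells and 2.34% in roof cells. Of 35117 genes in the table, 8931 reached 10 CPM in at least 1 region and are called measured. A gene was called higher or lower where the summed levels differed by at least 2-fold and still did so when any 1 of the 22 cells was left out. The 10 CPM minimum was set over all cells and not applied again with a cell left out. A called gene can therefore still rest largely on 1 cell. Where a region had no read, its level was set to 3 reads over the region, which is 0.0714 CPM in the floor and 0.0857 CPM in the roof, and the fold is written as at least. A cell carried a gene when it had 10 or more CPM of it, which is 35 thinned reads. Intervals are exact 95% intervals for the counting of reads or cells only, since reads without molecular identifiers are not independent molecules and the spread between embryos is unknown.

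The floor cells lacked most of the endothelial transcripts that their label implies. Of 10 endothelial markers, 6 (cdh5, tie1, egfl7, clec14a, esama and cldn5b) stayed under 10 CPM in each of the 12 floor cells, and none did so across the roof cells. Summed over the 10 markers, floor cells had 125 to 3246 CPM (median 916) and roof cells 8435 to 21167 CPM (median 14576), so the regions did not overlap. The floor sum was largely fli1a, the ETS factor that blood and endothelial cells share, and kdrl. Markers of blood progenitors (myb, gfi1aa, runx1, gata2b, itga2b, ikzf1, lmo2 and tal1) summed to 942 to 4903 CPM in floor cells and to 74.9 to 979.7 CPM in roof cells, so the regions overlapped slightly. Over the floor, myb and lmo2 had 968 and 700 CPM, while runx1, itga2b and gata2b had only 7.10, 1.95 and 58.0 CPM. The 8 erythroid markers were under 10 CPM in every roof cell and reached a sum of 57942 CPM in the highest floor cell. All neural (elavl3, sox2, neurod4), mural (pdgfrb, acta2, tagln) and pronephric (cdh17, pax2a) markers were under 10 CPM in every cell of both regions. Epidermis markers (krt4, epcam, tp63, cyt1) had a median sum of 0 in both regions. Their sum reached 307 CPM in the highest floor cell and 17.7 CPM in the highest roof cell. The notochord markers found (col2a1a, shha) were at 0 in floor cells and reached 86 CPM in the highest roof cell. The cells are therefore called floor cells and roof cells here, after the region on their label.

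**Figure D1:**
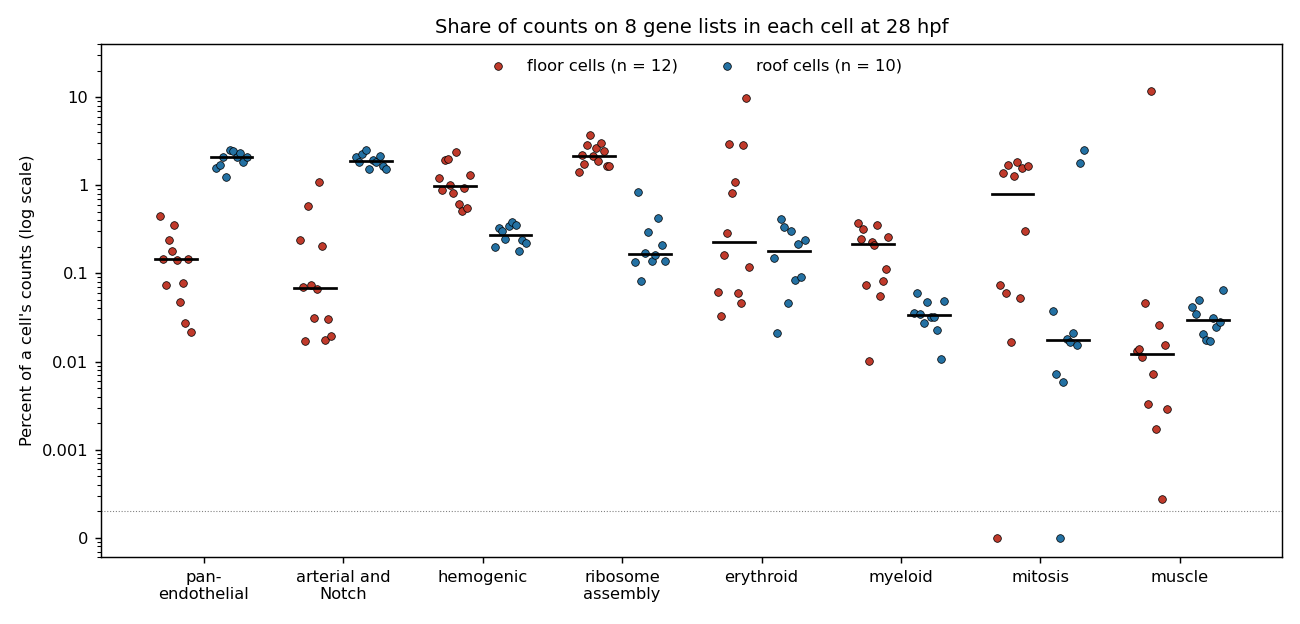
Percent of each cell's counts, on a log scale with 0 set at the foot, that fell on 8 gene lists; red points are the 12 floor cells, blue points the 10 roof cells and bars the medians. Pan-endothelial genes took at most 0.443% in a floor cell and at least 1.23% in a roof cell, while the erythroid, mitosis and muscle lists separated floor cells from each other.

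Differences between the regions were large and numerous. Of the measured genes, 2192 were called higher in the floor (24.5%) and 2443 lower (27.4%), which is 4635 in either direction (51.9%). Most were far past the 2-fold limit: 1739 of the higher genes and 2084 of the lower genes differed by at least 4-fold. The median log2 ratio over all measured genes was 0.13. Of the higher genes 1411 reached 10 CPM in the floor alone, and of the lower genes 1880 did so in the roof alone. The minimum level fixed the direction of these genes, so list counts below are a description only, and most are given with the number of such members. The background for every list count over all cells is 24.5% higher and 27.4% lower, and for every list median 0.13. With DESeq2 size factors in place of equal totals this median was 0.59 and the higher share of the called genes was 57.6%, against 47.3% with equal totals, so which direction held more genes depended on the scaling. Without the 4 floor cells with over 1% of their counts on erythroid genes, called erythroid-rich and described below, 1658 genes were called higher and 2695 lower.

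**Figure D2:**
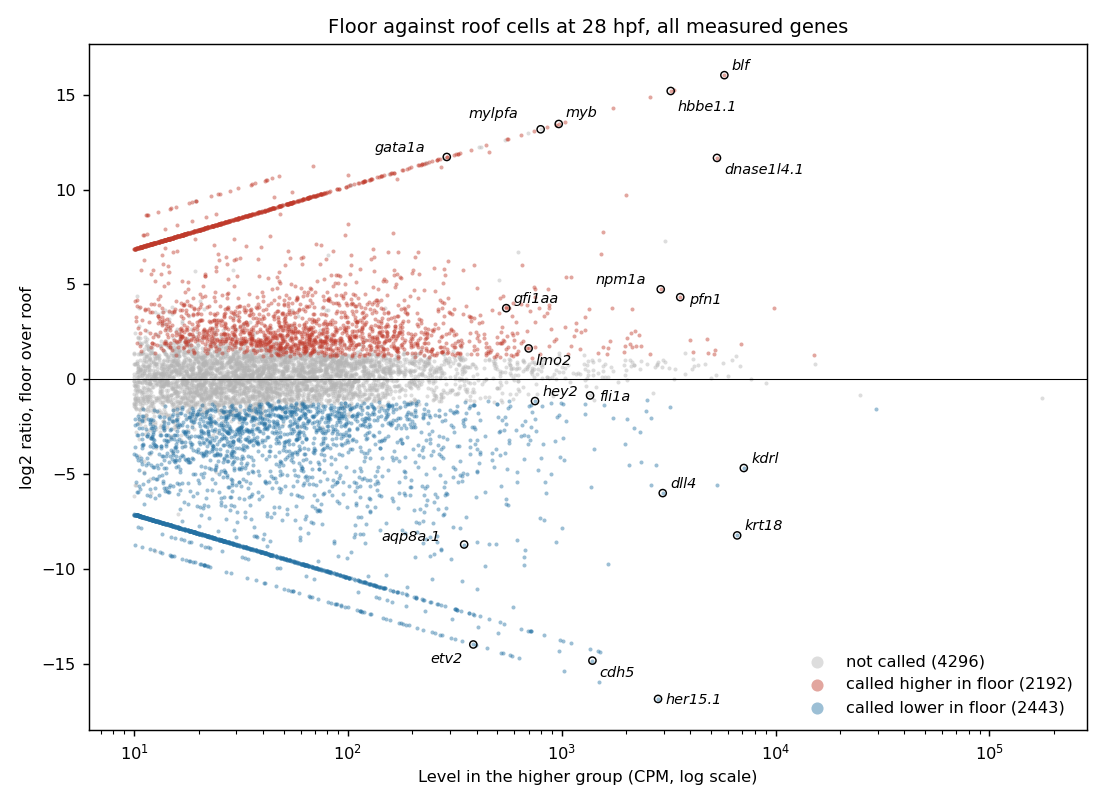
The log2 ratio of floor over roof against the level in the higher region (CPM, log scale) for the 8931 measured genes, with called genes in red (higher in floor) and blue (lower in floor) and others in grey. The 2 dense slanted lines are genes with 0 reads in 1 region, whose ratio is a bound; blf stands at the top and her15.1 at the bottom.

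Few of these differences were carried by every cell. A gene called higher was at 10 CPM or more in a median of 7 floor cells and 1 roof cell, and a gene called lower in a median of 1 floor cell and 6 roof cells. All 12 floor cells carried 168 of the higher genes (7.66%), and all 10 roof cells carried 309 of the lower genes (12.6%). At the other end, 392 higher genes were carried by 3 or fewer floor cells and 589 lower genes by 3 or fewer roof cells. No roof cell carried 760 of the higher genes, and no floor cell carried 1079 of the lower genes. Both conditions were met by 5 higher genes, which 12 of 12 floor and 0 of 10 roof cells carried, and by 68 lower genes, carried by 0 of 12 and 10 of 10. Ranked by cell, every floor cell lay above every roof cell for 27 genes (0.302% of those measured), and every roof cell lay above every floor cell for 153 (1.71%).

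**Figure D3:**
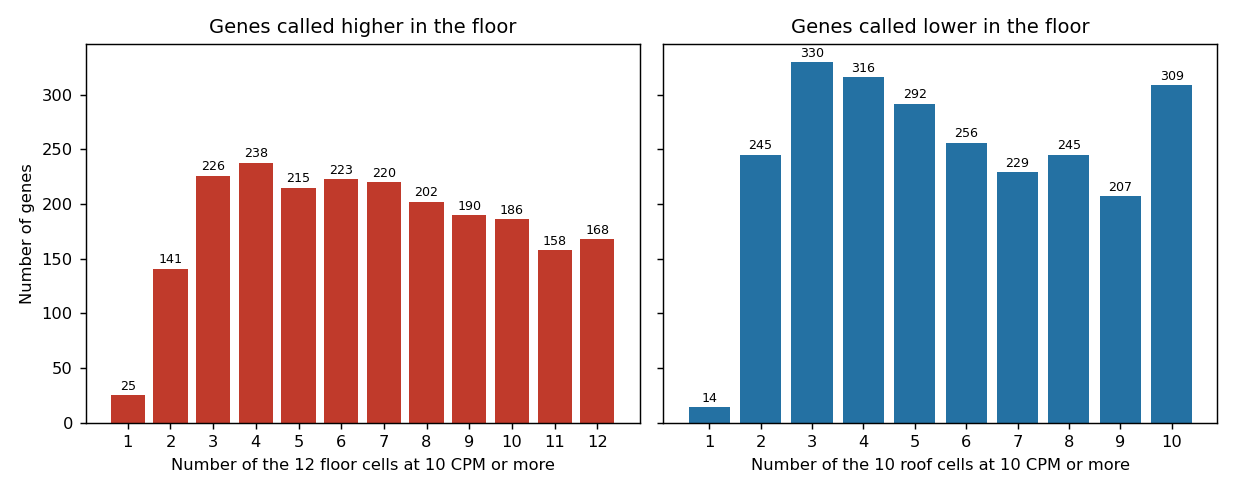
Number of genes called higher in the floor (left, red) by how many of the 12 floor cells had 10 or more CPM, and of genes called lower (right, blue) by how many of the 10 roof cells did. Higher genes peak at 4 floor cells (238 genes) and 168 are carried by all 12; lower genes peak at 3 roof cells (330 genes) with a further 309 carried by all 10.

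Transcription factor genes of early blood were among those with the largest ratios. The zinc finger gene blf had 159 to 15656 CPM in floor cells (median 3940) and 0 in every roof cell, higher by at least 67231-fold. For myb, the regulator of definitive blood progenitors, floor cells had 31.4 to 2609 CPM (median 1006) and roof cells 0. Both genes were carried by all 12 floor cells (exact interval 73.5% to 100%) and by 0 of 10 roof cells (0% to 30.8%). The zinc finger gene znfl2a was carried by 10 of 12 floor cells, with a median of 941 CPM, and ikzf1, a lymphoid and progenitor factor, by 10 of 12 with a median of 263 CPM. The blood zinc finger gene drl was carried by 10 floor cells and a further zinc finger gene, znf296, by 9, and no roof cell had a read of either.

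Among the regulators of the transition itself, runx1 was scarce. It had 0 to 32.3 CPM in floor cells (median 5.86) and 0 to 9.71 CPM in roof cells (median 0). The region sums were 7.10 and 1.26 CPM, too low to count as measured, and it was carried by 2 of 12 floor cells and by no roof cell. For gata2b the floor had 0 to 361 CPM (median 4.71; 5 of 12 cells) and the roof 0 to 233 CPM (median 0; 3 of 10 cells), and the sums differed by 1.46-fold (1.36 to 1.56), which was not called. Its direction rested on single cells: the floor was lower, at 0.764 of the roof level, without floor cell 9, and higher by 3.18-fold without roof cell 2. The repressor gene gfi1aa was higher by 13.5-fold (12.8 to 14.2), with 0 to 2879 CPM in floor cells (median 345; 9 of 12 cells) and 0 to 223 CPM in roof cells (median 0; 3 of 10 cells). Floor cell 9 alone held 43.6% of the floor reads of gfi1aa, and without it the ratio was 8.28-fold; roof cell 5 held 54.7% of the roof reads, and without it the ratio was 26.8-fold.

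The factors shared by blood and endothelium were less divided. Floor cells had 0 to 1080 CPM of tal1 (median 152) and roof cells 0 to 584 CPM (median 42.7), higher in the floor by 4.09-fold (3.95 to 4.24). Leaving out roof cell 2 made this 8.76-fold. The level of its partner lmo2 was 92.3 to 1699 CPM in floor cells (median 507) and 37.7 to 517 CPM in roof cells (median 194), higher by 3.09-fold (3.02 to 3.17), and every cell of both regions carried it. The ETS factor gene fli1a was carried by all 22 cells, at 125 to 1563 CPM in floor cells (median 634) and 616 to 2676 CPM in roof cells (median 1194), and its ratio of 1.81-fold (1.78 to 1.83) in favour of the roof was not called. The myeloid factor gene spi1b was present in 2 floor cells only, floor cell 1 at 175 CPM and floor cell 3 at 25.1 CPM, and in no roof cell. The integrin gene itga2b, a progenitor and thrombocyte marker, was carried by floor cell 11 alone, at 23.4 CPM. The receptor gene kita had no read in the floor and 0 to 32.3 CPM in the roof, where 3 cells carried it.

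Of 22 measured genes in the hemogenic list, 14 were called higher, 5 lower and 3 neither, with a median log2 ratio of 2.12 against 0.13 over all measured genes. These are 63.6% higher and 22.7% lower, against 24.5% and 27.4% of all measured genes, so the lower share was near that of genes in general. The minimum level was reached in the floor alone by 7 of the higher members and in the roof alone by 2 of the lower ones. Besides those above, the higher members included cebpa (568 and 41.3 CPM in the floor and roof sums), cebpb (752.5 and 37.5 CPM), coro1a (219.9 and 0 CPM) and cbfb, the partner of runx1 (78.7 and 16.9 CPM). Without roof cell 2 the ratio of cebpa was 39.7-fold in place of 13.8-fold, and without roof cell 1 that of cebpb was 48.4-fold in place of 20.1-fold. The cbfb ratio of 4.65-fold was 2.81-fold without floor cell 3 and 8.61-fold without roof cell 6. Several of these genes are also expressed by myeloid cells. The 5 lower members were the chemokine receptor gene cxcr4a, the homeobox genes hoxb4a and meis1b, lmo4a and zbtb16a. For cxcr4a every roof cell had at least 214 CPM (median 1356) and no floor cell had a read.

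Genes of blood-cell signalling and adhesion lay on the floor side as well. The list had 11 of 21 measured members called higher and 3 lower, with a median of 2.21, against 24.5% and 27.4% of all measured genes and a median of 0.13, and 9 of the higher members were measured through the floor alone. The kindlin gene fermt3b, which activates integrins in blood cells, had 0 to 932 CPM in floor cells (median 135; 9 of 12 cells) and 0 in roof cells. The adaptor gene grap2b was carried by 8 of 12 floor cells and parvg, an integrin-linked parvin of blood cells that was named for its ratio rather than listed, by 10 of 12, with no roof read of either. In the other direction, plcg1, the phospholipase downstream of the kdrl receptor, was lower by 16.5-fold, and each roof cell (120.3 to 468 CPM) was above each floor cell (0 to 58.0 CPM). Its blood-cell relative plcg2 had 67.0 CPM in the floor, of which floor cell 4 gave 70.7%, and 0 in the roof.

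Nucleolar and translation genes were abundant in every floor cell as well. The nucleolar gene npm1a had 899 to 7399 CPM in floor cells (median 2255) and 0 to 615 CPM in roof cells (median 58.7), higher by 26.8-fold. The box C/D snoRNP gene nop58 differed by 13.3-fold (12.9 to 13.7) and its partner fbl by 41.7-fold (39.1 to 44.6). Without roof cell 2, the ratios were 55.9-fold for npm1a, 20.9-fold for nop58 and 64.6-fold for fbl. The pseudouridine synthase gene dkc1 was higher by 14.8-fold (14.2 to 15.5). For each of these 4 genes the lowest floor cell lay above the highest roof cell. The same held for the lysyl-tRNA synthetase gene kars (281 to 1141 CPM in floor cells, 0 to 264 CPM in roof cells), the translation initiation gene eif4e1c, the arginine methyltransferase gene prmt1, the proteasome gene psmb7 and the RNA-binding gene hnrnpabb. It also held for pfn1, which codes for the actin-binding protein profilin, at 1025 to 6069 CPM in floor cells (median 3843) and 0 to 515 CPM in roof cells (median 136).

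**Figure D4:**
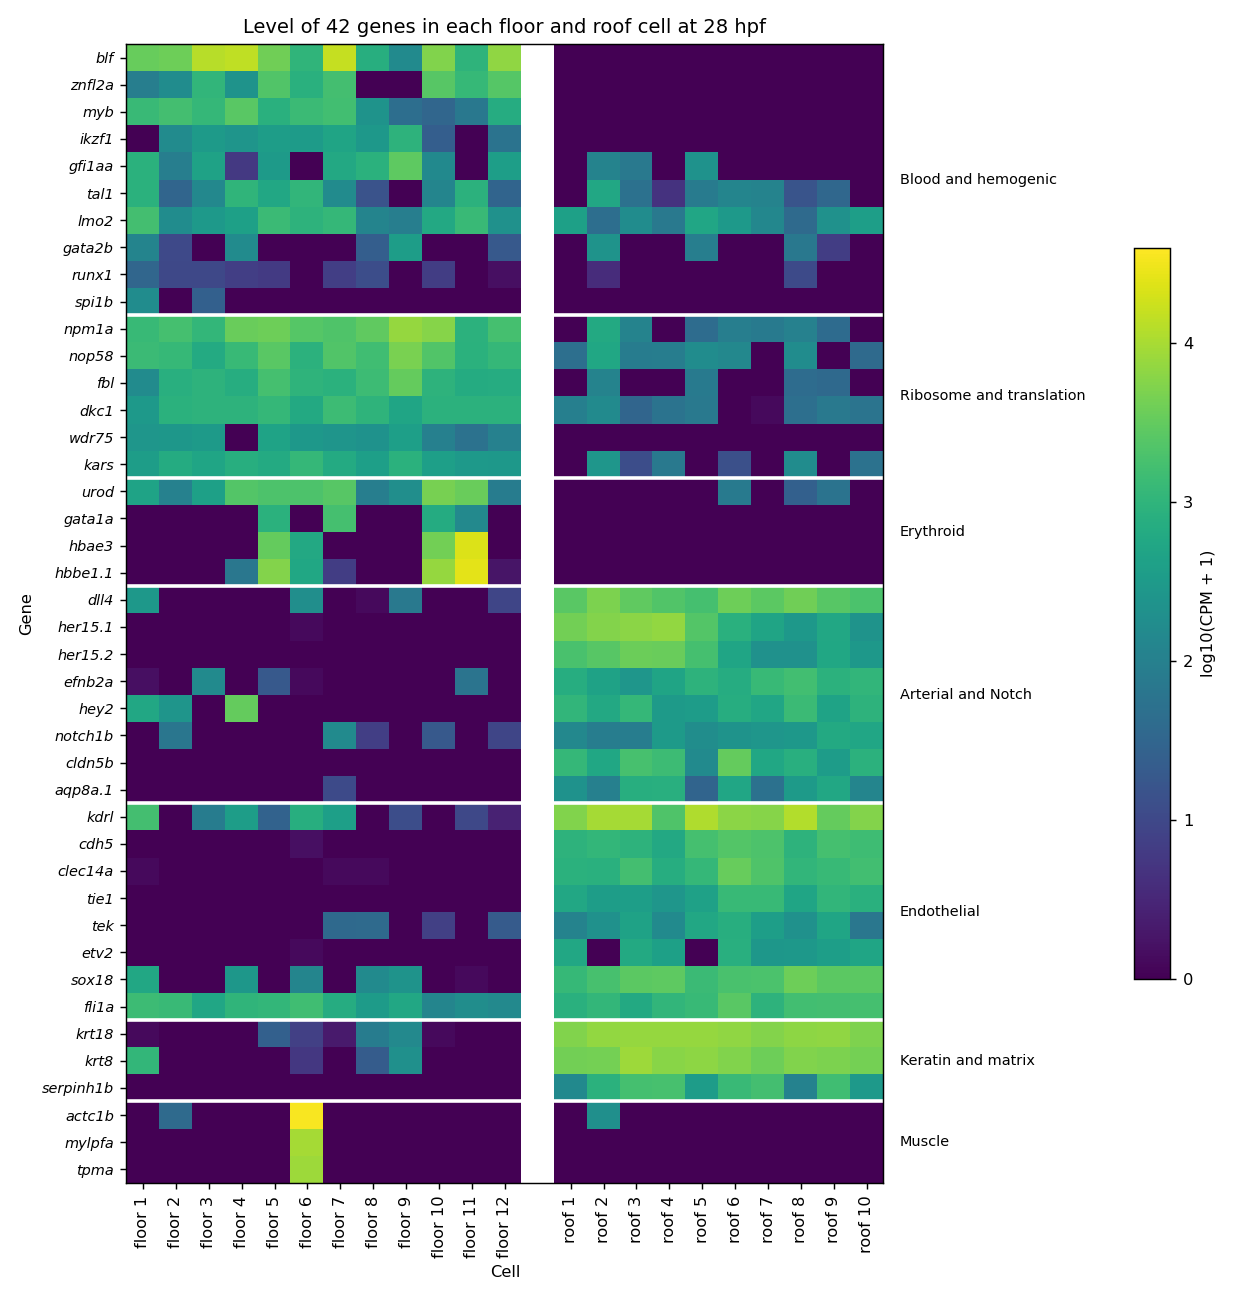
Level of selected genes, as log10(CPM + 1) by colour, in each of the 12 floor cells (left) and 10 roof cells (right), grouped by role. Blood and ribosome genes such as blf, myb and npm1a run through the floor cells, dll4, kdrl and krt18 run through the roof cells, globin genes appear in some floor cells, and the 3 plotted muscle genes are highest in floor cell 6, with actc1b also in floor cell 2 and roof cell 2.

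Because ribosome genes led this group, 2 further lists were written after these values had been seen, and are a description only. Of 94 measured genes of ribosome assembly, 86 were called higher (40 of them measured through the floor alone) and none lower, with a median log2 ratio of 3.44. Their share of counts was 1.42% to 3.73% in floor cells (median 2.17%) and 0.0819% to 0.847% in roof cells (median 0.167%), with no overlap. The small-subunit assembly gene wdr75 was carried by 11 of 12 floor cells, the nucleolar gene nol6 by 10 and the RNA polymerase I subunit gene polr1e by 11, and no roof cell carried any of the 3. Cytoplasmic tRNA synthetase genes were called higher in 18 of 19 cases, 6 of them measured through the floor alone, with a list median of 2.50, and rars, yars and iars had no roof read. The ribosomal protein genes differed far less. Their median was 0.55, 3 of 73 (rplp0, rpl4 and rpl10) were called higher and none lower, and they took 7.73% to 18.4% of the counts of floor cells (median 11.2%) and 6.49% to 10.2% of those of roof cells (median 7.72%).

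Most endothelial genes were higher in the roof and under 10 CPM in the floor sum, with fli1a, tal1 and kdrl among the exceptions. Of 28 measured pan-endothelial genes, 25 were called lower in the floor, 2 higher and 1 neither, with a median log2 ratio of -9.95, and 21 of the lower genes were measured through the roof alone. The junction gene cdh5 (VE-cadherin) had 605 to 2358 CPM in roof cells (median 1291), against 2 reads in all floor cells together, both in floor cell 6. The receptor gene tie1 had no floor read and 264 to 1277 CPM in roof cells. The surface lectin gene clec14a, the secreted factor gene egfl7, the adhesion gene esama and the receptor gene flt1 each had 3 or fewer reads over the 12 floor cells, and 447 to 1479 CPM in the roof sum. The angiopoietin receptor gene tek was lower by 40.4-fold (36.4 to 45.0), at 0 to 38.6 CPM in floor cells and 66.6 to 755 CPM in roof cells. The early vascular factor gene etv2 had 1 floor read and was carried by 8 of 10 roof cells, with no read in roof cells 2 and 5.

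The transcript of kdrl, the gene whose control region drives the reporters, was present in part of the floor. Floor cells had 0 to 1695 CPM of kdrl (median 19.4) and roof cells 2197 to 11824 CPM (median 6024), lower in the floor by 25.6-fold (25.1 to 26.1). With floor cell 1 left out, this was 47.8-fold. Yet 7 of 12 floor cells carried it (27.7% to 84.8%), and floor cell 1 held 50.9% of the floor reads. The SoxF factor genes were split. No floor read of sox7 was found, sox18 was carried by 5 floor cells and by every roof cell, and sox17 was present in floor cells 1 and 4 alone, at 213 and 434 CPM, with a roof sum of 0.0857 CPM. The higher members of the pan-endothelial list were tal1 and vwf, the von Willebrand factor gene, which 6 of 12 floor cells and no roof cell carried (52.6 and 0 CPM). Von Willebrand factor is also made by cells of the thrombocyte lineage, and the thrombocyte gene gp1bb was carried by 5 of 12 floor cells and no roof cell. The thrombocyte and lymphoid list that holds gp1bb had 5 of 18 members measured, of which gp1bb and ikzf1, both measured through the floor alone, were called higher and none lower, with a median of -0.85, and gp9, another thrombocyte gene, had no read.

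Arterial and Notch genes followed the same pattern. Of 31 measured members, 27 were called lower in the floor and 2 higher, with a median of -7.62, and 20 of the lower genes were measured through the roof alone. The Notch ligand gene dll4 had 0 to 287 CPM in floor cells (median 0; 3 of 12 cells) and 1721 to 4945 CPM in roof cells (median 2676), lower by 64.0-fold (61.2 to 67.0). With floor cell 1 left out, this was 121-fold. The arterial ephrin gene efnb2a was lower by 42.9-fold (40.1 to 46.1) and the receptor gene notch1b by 12.9-fold. Leaving out floor cell 3 made the efnb2a difference 118-fold, and leaving out floor cell 7 made that of notch1b 31.4-fold. Notch receptor genes notch1a and notch3 had no floor read, against 271 and 71.1 CPM in the roof sum. The tight junction gene cldn5b had no floor read and 158 to 3269 CPM in roof cells (median 844).

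Notch target genes of the hairy and enhancer-of-split family did not move as a block. The genes her15.1, her15.2, her12 and her2 were carried by all 10 roof cells and by no floor cell. For her15.1 the roof cells had 233 to 7294 CPM (median 1594) and the floor 1 read. That read was in floor cell 6. Roof cells 1 to 5 had 2351 to 7294 CPM of her15.1 and roof cells 6 to 10, which share a title part, 233 to 837 CPM, with no overlap. For her15.2 the same cells had 1781 to 3678 CPM and 208 to 551 CPM. Reads of her15.1 and her15.2, which are near-identical copies, may have been split between them by the counting. In contrast hey2 was present at 564, 245 and 3251 CPM in floor cells 1, 2 and 4, at 0 in the other floor cells and at 321 to 1378 CPM in roof cells (median 658). Its ratio of 2.22-fold (2.17 to 2.26) lower in the floor was 10.2-fold without floor cell 4, which held 80.1% of the floor reads. The related her6 reached 7489.7 CPM in floor cell 8, which held 85.8% of the floor reads, and had 0 to 2514 CPM in roof cells, and was not called. The gene hes6 of the same family was called higher, with 7 floor cells and 1 roof cell carrying it (96.4 and 9.17 CPM). All its roof reads were in roof cell 2, so the 10.5-fold ratio was at least 1012-fold without that cell.

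Vessel-bed and guidance genes were likewise on the roof side. The venous list had 9 of 10 measured members called lower and none higher (median -4.17), the sprouting and tip-cell list 13 of 15 (median -5.95) and the junction list 12 of 17, with 2 higher (median -3.88). Of these lower genes, 5 venous, 10 sprouting and 5 junction genes were measured through the roof alone. The junction and sprouting lists share members with the pan-endothelial or arterial lists, so they are not separate results. Examples are cdh5, esama and cldn5b of the junction list and cxcr4a and vegfc of the sprouting list. The scavenger receptor genes of venous endothelium, stab1 and stab2, had 0.0476 and 23.8 CPM in the floor sum, against 152 and 263 CPM in the roof sum. For stab2, lower by 11.1-fold, roof cell 6 gave 45.8% of the roof reads and floor cell 6 gave 64.8% of the floor reads. The difference was 6.66-fold without roof cell 6 and 28.8-fold without floor cell 6. The tip-cell gene esm1 had no floor read and 0 to 3758 CPM in roof cells (median 469; 9 of 10 cells). The water channel gene aqp8a.1 was lower by 419-fold (301 to 602), at 29.7 to 798 CPM in roof cells, with all 35 floor reads in floor cell 7, so that it was lower by at least 4485-fold when that cell was left out. A second water channel gene, aqp1a.1, had 0 to 22.9 CPM in floor cells and 0 to 3775 CPM in roof cells (median 1477; 9 of 10 cells). The 2 higher junction genes were the occludin genes oclna and oclnb, each in 3 floor cells.

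Signalling lists had few measured members. All 4 measured Hedgehog pathway and target genes were called lower (median -10.10), but each reached 10 CPM in the roof alone, so their direction was fixed by the minimum level. Among them were gli2a at 0 in the floor and 0 to 220 CPM in roof cells (median 120; 9 of 10 cells), and the receptor component gene smo, with 1 floor read. Among flow-responsive genes 6 of 9 were lower (66.7%, against 27.4% of all measured genes), with a list median of -5.62. Of these 6 lower genes, 5 were measured through the roof alone and could only come out lower. The exception was klf6a, at 68.5 CPM in the floor sum and 389.8 CPM in the roof sum. The flow-induced factor gene klf2a itself was carried by 2 of 10 roof cells and no floor cell, and the mechanosensitive channel gene piezo1 by 8 of 10 and none. Lower calls held 6 of 10 BMP targets (60%, against 27.4% of all measured genes), with a list median of -2.68. Among them were smad6b, with no floor read, and id1 (480.1 and 2016 CPM in the floor and roof sums, 5 of 12 and 10 of 10 cells). The targets id2a and id3 were not called. The lower target hey1 is also on the arterial and Notch list. Of these 6 lower targets, 4 were measured through the roof alone, and the id1 difference was 6.34-fold without floor cell 9, more than 1.5 times that over all cells. Of 9 measured TGF-beta and transition genes, 5 were lower (median -5.65), with snai1a, the receptor gene acvrl1 and tgfb1a at 0 in the floor. All of the 5 but zeb1b (16.2 CPM in the floor sum, 46.0 CPM in the roof sum) reached 10 CPM in the roof alone, so the minimum level fixed the direction of these 4 as well.

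Matrix genes were mostly lower in the floor. Of 17 measured matrix genes 14 were lower and none higher (median -6.59), and 10 of the lower genes were measured through the roof alone. Among the lower genes, lama4 is also on the sprouting list. The collagen chaperone gene serpinh1b had no floor read and 110.3 to 1793 CPM in roof cells (median 1097). The list of epidermis markers had 2 of 10 measured members called higher and 6 lower (median -5.53), of which 1 higher and 4 lower genes were measured through a single region. It took 0.103% to 0.610% of the counts of floor cells (median 0.407%) and 0.953% to 1.63% of those of roof cells (median 1.25%), with no overlap. In this list epcam had no read, and tp63 stayed under 10 CPM in both sums but not in every floor cell. Among its members, the simple-epithelial keratin genes krt18 and krt8 were among the most abundant roof transcripts. For krt18 the roof cells had 5141 to 7581 CPM (median 6876) and the floor cells 0 to 146 CPM (median 0.286), lower in the floor by 301-fold (282 to 321). With floor cell 9 left out, this was 615-fold. For krt8 the difference was 48.3-fold (46.9 to 49.8), and floor cell 1, at 1096 CPM, gave 82.7% of the floor reads; without it the difference was 256-fold. The membrane linker gene msna, which is not in that list, was lower by 4.17-fold (4.11 to 4.22), with every cell of both regions carrying it and every roof cell above every floor cell. The 2 higher epidermis-list genes were pfn1, given above, and a further keratin gene, krt4, which 3 floor cells carried (35.9 and 0 CPM in the floor and roof sums). Among trunk position genes, 11 of 14 were lower and 1 higher (median -8.13), but 10 of the lower genes reached 10 CPM in the roof alone and the higher gene, hoxa10b, in the floor alone, so the minimum level fixed their direction. The exception was meis1b, at 37.1 CPM in the floor sum and 162 CPM in the roof sum. No floor cell had a read of hoxb8a, hoxc8a or hoxb9a, which 9, 6 and 6 of 10 roof cells carried, and hoxa10b was carried by 3 floor cells and no roof cell.

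Lists written as markers of other tissues had few measured members and went both ways. The 7 measured neural genes were all called lower (median -10.56), among them the Notch genes her4.2, dla and notch3, the tubulin gene tubb5 and the RNA-binding gene nova2 (0.0238 and 119 CPM of tubb5 and 0 and 108 CPM of nova2 in the floor and roof sums). All 4 measured notochord and sclerotome genes were lower, namely col2a1a, foxc1a, foxc1b and the caveola gene cavin1b, which every roof cell carried. All 11 reached 10 CPM in the roof alone, so their direction was fixed by the minimum level. In the other direction, 2 of 3 measured endoderm and gut genes were higher and none lower, namely the endoderm factor genes sox17 and sox32 (53.9 and 45.1 CPM in the floor sum, 0.0857 and 4.97 CPM in the roof sum). Floor cell 6 gave 64.0% of the floor reads of sox32, which was higher by 3.56-fold without that cell. All roof reads of sox32 were in roof cell 7. Of 4 measured pronephros genes slc20a1a was higher and trpm7 and podxl were lower. Of 3 measured mural and mesenchyme genes lum was higher and notch3 and foxc1b were lower. The neural crest and pigment list had 1 measured gene, which was not called. Except for podxl, these called genes reached 10 CPM in a single region. Several members are shared between lists, so their counts are not separate results. The gene notch3 is on the neural, mural and arterial lists and foxc1b on the notochord and mural lists. The gene sox17 is on the endoderm and arterial lists.

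Erythroid transcripts divided the floor cells from each other. Erythroid genes took over 1% of the counts in floor cells 11 (9.87%), 5 (2.93%), 10 (2.87%) and 7 (1.09%), and 0.0330% to 0.817% in the other 8. Roof cells had 0.0208% to 0.413%, of which aqp1a.1, listed as erythroid and abundant in the roof, was the main member. Of 33 measured erythroid genes 28 were called higher in the floor and 1, aqp1a.1, lower, with a median of 9.06, and 22 of the higher genes were measured through the floor alone. The factor gene gata1a, itself a member of this list, had 879, 1783, 673 and 144 CPM in floor cells 5, 7, 10 and 11. It had no read in the other 8 floor cells or in any roof cell. Its reads are part of the share that set these 4 cells apart, so the match is a description only. Globin genes did not all follow gata1a. The alpha globin gene hbae3 had 22976 CPM in floor cell 11, 4207 in floor cell 10, 3239 in floor cell 5 and 607 in floor cell 6, and 0 in the others, floor cell 7 included. The copies hbae1.2 and hbae1.3 were carried by 11 of 12 floor cells each, with medians of 569 and 466 CPM, and by no roof cell. Reads of these near-identical globin copies may have been split between them.

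Heme synthesis genes differed in how many cells carried them. The gene urod, for uroporphyrinogen decarboxylase, had 84.3 to 4450 CPM in floor cells (median 1263; 12 of 12 cells) and 0 to 73.4 CPM in roof cells (median 0; 3 of 10 cells), higher by 98.8-fold (90.8 to 108). Leaving out roof cell 6 made this 170.0-fold. By contrast alas2, the red cell enzyme that starts the pathway, was carried by 4 of 12 floor cells and no roof cell. The iron storage gene fth1a was carried by every cell of both regions, at 629.7 to 11079 CPM in floor cells (median 1256) and 311 to 622 CPM in roof cells (median 447). Without the 4 erythroid-rich cells 19 erythroid genes were measured, 6 were called higher and 2 lower, and the median was 1.32. A drop was built into this setting, since these cells were chosen by their share on the same list. Of all 8718 genes measured without them, 1658 were higher and 2695 lower (median 0.01). The hemogenic median without these cells was 1.98, with 11 of 21 higher and 5 lower, so it differed little from the value over all floor cells.

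Myeloid genes were higher in 7 of 11 measured cases (63.6%) and lower in 2 (18.2%), with a median of 4.33. Of all measured genes, 24.5% were higher and 27.4% lower. Of the higher myeloid genes, 5 were measured through the floor alone. The higher genes spi1b, cebpa, cebpb and coro1a are also members of the hemogenic list, so these 2 lists are not separate results. The myeloperoxidase gene mpx was found in floor cells 5 (98 CPM), 10 (543 CPM) and 11 (1069 CPM), which were also 3 of the 4 erythroid-rich cells, and in no other cell of either region. The oxidase subunit gene ncf1 was carried by 5 floor cells, with 60.1% of its floor reads in floor cell 12. The macrophage and neutrophil markers lyz, mpeg1.1 and csf1ra were under 10 CPM in every floor cell. Lower in the floor were nccrp1 (29.4 to 161 CPM in roof cells, at most 12.3 CPM in floor cells) and the proteoglycan gene srgn.

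Proliferation genes were unevenly spread in both regions. Mitosis genes took over 1% of the counts in 6 of 12 floor cells (cells 3, 5, 7, 8, 10 and 12) and in 2 of 10 roof cells (cells 9 and 10). The highest share, 2.49%, was in a roof cell, against 1.85% in the highest floor cell. Of 48 measured mitosis genes 15 were called higher (31.25%, against 24.5% of all measured genes) and none lower (median 0.91). Without the erythroid-rich cells 3 of 46 were higher and 1 lower (median 0.19). Over all genes measured without those cells, 1658 of 8718 were higher and 2695 lower. The kinase gene cdk1 had 480.5 CPM in the floor and 262 CPM in the roof, where roof cell 10 gave 67.8% of the reads, and was not called. DNA replication genes were called higher more often, in 28 of 42 cases with 1 lower (median 2.98), 22 of the 28 being measured through the floor alone. The helicase genes mcm2, mcm3 and mcm6 were carried by 7, 5 and 4 floor cells and by no roof cell, with the largest share of reads in floor cells 6 and 11. Without the muscle-rich and erythroid-rich cells, 11 of 31 replication genes were higher and 5 lower (median 1.56). Over all genes measured without both kinds of cell, 1489 of 8532 were higher and 2821 lower (median -0.14).

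Chromatin and HMG genes were higher in 17 of 29 measured cases (58.6%) and lower in 1 (3.45%), hmgb3a, with a median of 1.44. Over all measured genes these values were 24.5%, 27.4% and 0.13. This list shares npm1a, fbl, dkc1, ncl and nop56 with ribosome assembly. The high mobility group genes hmgb2a (6873 and 1882 CPM in the floor and roof sums) and hmgn2 (3989 and 964 CPM) and the prothymosin gene ptmab were carried by every cell of both regions.

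Metabolic and stress genes were mixed. Glycolysis genes were called higher in 8 of 23 cases (34.8%) and lower in 3 (median 0.92). The hexokinase gene hk2 was carried by 6 floor cells and no roof cell, and the dehydrogenase gene gapdhs was lower by 2.42-fold (2.38 to 2.47). Oxidative phosphorylation genes were higher in 5 of 34 cases and lower in none (median 0.58). Antioxidant genes were higher in 7 of 25 cases (28.0%) and lower in 4 (median 0.62). Against 24.5% of all measured genes called higher, the antioxidant share is near this background and the oxidative phosphorylation share, 14.7%, is below it. By share of counts, oxidative phosphorylation genes took a median of 0.749% in floor cells and 0.417% in roof cells. Of the 12 floor cells, 10 lay above every roof cell. For antioxidant genes the medians were 0.353% and 0.193%, with 9 of 12 floor cells above every roof cell. The thioredoxin gene txn was carried by 10 of 12 floor cells (median 189 CPM) with no roof read, prdx2 was higher by 13.2-fold (12.7 to 13.6), while the glutathione enzyme gene gpx4b was lower by 2.56-fold (2.49 to 2.64) and gsr by 3.50-fold (3.25 to 3.76). Outside these lists, tdh, for threonine dehydrogenase, was carried by 11 of 12 floor cells (median 346 CPM) and no roof cell. The amino acid transporter gene slc38a5a was carried by 12 of 12 (32.6 to 530.0 CPM) and no roof cell.

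Early-response and stress genes were lower in 18 of 37 cases (48.6%) and higher in 3 (8.11%), with a median of -1.66. Of all measured genes, 27.4% were lower and 24.5% higher. Among the called members, 5 lower genes were measured through the roof alone and 1 higher gene through the floor alone. The factor gene cebpd had no floor read and 0 to 1454 CPM in roof cells (median 432; 9 of 10 cells), and jun was lower at 55.8 CPM in the floor, against 569 CPM in the roof. The jun difference of 10.2-fold was 16.2-fold without floor cell 1. The constitutive chaperone gene hspa8 was higher by 2.44-fold (2.43 to 2.46), with every floor cell (10492 to 26545 CPM) above every roof cell (4014 to 8793 CPM). Heat shock genes were uneven: floor cell 4 gave 79.3% of the floor reads of hsp70.3 and roof cell 4 gave 56.6% of the roof reads. The inflammatory list had 2 of 16 measured members higher and 2 lower, with a median of 0.17. That is 12.5% in each direction, below the 24.5% and 27.4% of all measured genes.

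Floor cell 6, titled with the part M11D13_2, stood apart through muscle transcripts. Muscle genes took 11.6% of its counts, at most 0.0456% in any other floor cell and at most 0.0654% in any roof cell. It had 36291 CPM of the alpha-actin gene actc1b, 9561 of the myosin light chain gene mylpfa, 8371 of the tropomyosin gene tpma and 5041 of the creatine kinase gene ckma. In the other floor cells actc1b was at most 38.3 CPM and mylpfa, tpma and ckma were at 0. The muscle determination gene myod1 was under 10 CPM in this cell as in all others. Of 31 measured muscle genes, 27 had at least 90% of their floor reads in floor cell 6, and 10 remained measured without it. The muscle median turned from 9.01 with all cells to -3.64 without floor cell 6, with 5 higher and 1 lower among 31 genes with it, and 2 higher and 5 lower among 10 without it. Among the genes called higher with all cells, myl1, mylz3 and desma had 99.4%, 99.2% and 96.1% of their floor reads in floor cell 6. They were not measured without it, so these calls rested on that cell.

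**Figure D5:**
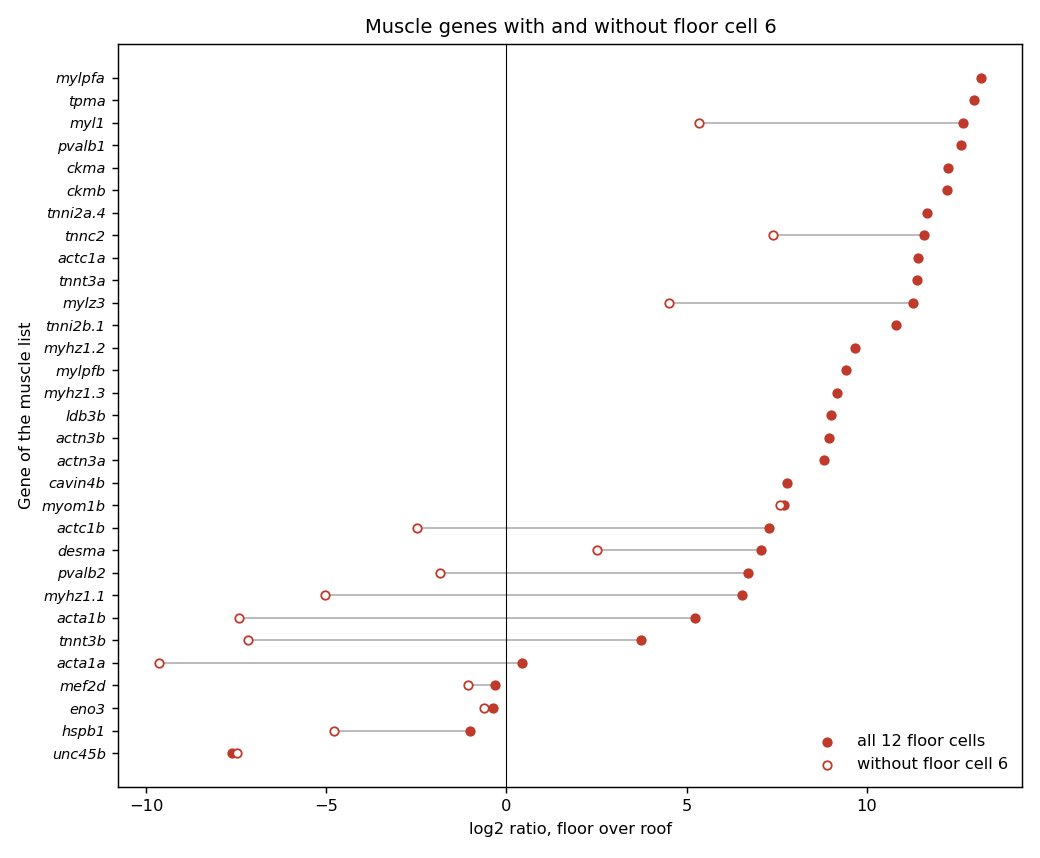
The log2 ratio of floor over roof for the 31 measured muscle genes with all 12 floor cells (filled) and without floor cell 6 (open); no open circle is drawn where both regions had 3 or fewer reads without it, and ratios with a region at 0 reads are bounds. Genes such as mylpfa, tpma and ckma have no ratio left, and acta1a, acta1b and tnnt3b cross to the roof side.

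The same cell carried the leading floor genes too. It had 1025 CPM of blf, 1352 CPM of myb and 934 CPM of lmo2, no gfi1aa or gata2b, 756 CPM of kdrl and 189 CPM of dll4. The few floor reads of cdh5, egfl7, esama and etv2 came from it. Leaving it out moved the counts of called genes little, to 2145 higher and 2491 lower. Of 3096 genes at least 2-fold higher (34.7% of those measured) before the rule on leaving out cells, 274 needed it, and 188 genes were no longer measured. Other floor cells were needed by 63 (floor cell 10) to 256 (floor cell 1) such genes, so floor cell 6 was at the top of a range that began well above 0.

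Single cells weighed on other genes too. Genes with clone-based or numeric placeholder names were left out of the counts at 100 CPM that follow. Of the other genes at 100 CPM or more, 81 had at least 50% of their floor reads in 1 floor cell. Of these, 21 were in floor cell 6, 18 in floor cell 11 and 12 each in floor cells 1 and 4. For the roof 33 genes had at least 50% of their roof reads in 1 roof cell, 15 of them in roof cell 10. That cell was also of high mitosis share and gave 79.8% of the roof reads of kif11. The order of cells depended on the limit of 100 CPM. In a count of such genes not held to it, floor cell 1 led with 446, ahead of floor cell 6 with 365 and floor cell 4 with 310. Roof cell 2 led in the roof with 333, against 227 in roof cell 10. The nucleoside transporter gene slc29a1b had 54.7% of its roof reads in roof cell 5, and the immediate early gene atf3 69.5% in roof cell 2.

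As a description of likeness, the correlation between cells over measured genes had a median of 0.453 between floor cells, 0.468 between roof cells and 0.232 between a floor and a roof cell, and all 22 cells were most like a cell of their own region. The measured genes include 1411 higher and 1880 lower genes that reached the minimum level in 1 region alone. This choice of genes favours likeness within a region, so the correlations are not evidence of separation. Cells share a library method and were thinned to the same depth, and no p-value applies. The titles of floor cells carry 5 parts (M8, M9, M10, M11 and M12, with 2, 2, 1, 1 and 6 cells), and those of roof cells 3 other parts (with 1, 4 and 5 cells). Floor cell 12 is titled D12 and described as M12, and was placed with M12 on its description. What these parts stand for is not stated in the labels. No part holds cells of both regions, so title part and region cannot be told apart.

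The values at 28 hpf were set beside those at 21 hpf, from 18 floor and 17 roof cells of the same lines, with every cell thinned to 200000 reads; 1 of 18 roof cells at 21 hpf had fewer reads and was left out. At that depth 2132 of 9030 measured genes were called higher (23.6%) and 2422 lower (26.8%) at 28 hpf, and 2009 of 9123 higher (22%) and 1604 lower (17.6%) at 21 hpf. Over the 7666 genes measured at both stages, 885 were called higher at both, which is 47.4% of the 1869 at 28 hpf and 57.4% of the 1543 at 21 hpf. Lower at both stages were 875, which is 45.0% of the 1945 at 28 hpf and 66.9% of the 1308 at 21 hpf. Another 49 and 87 genes, called higher and lower at 28 hpf, were called in the opposite direction at 21 hpf. No test of the difference between stages was made, since each region at each stage is a single sample.

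List medians at the 2 stages, at this common depth, were as follows in log2. Hemogenic genes had 2.13 at 28 hpf and 1.73 at 21 hpf, and erythroid genes 5.83 at 28 hpf and 7.54 at 21 hpf. Arterial and Notch genes had -6.07 at 28 hpf and -1.48 at 21 hpf, and pan-endothelial genes -6.26 and -1.73. The counts of called members differed less than these medians for pan-endothelial genes, with 25 of 28 lower at 28 hpf and 22 of 28 at 21 hpf. For arterial and Notch genes 27 of 31 and 17 of 30 were lower. Over all measured genes 26.8% were lower at 28 hpf and 17.6% at 21 hpf. S-phase genes had 3.00 and 0.08, and mitosis genes 0.95 and -0.59. Single genes, chosen after their values were seen, were as follows. The aqp8a.1 level was 0 CPM in the floor and 349 CPM in the roof at 28 hpf by these reads, and 354 CPM in the floor and 133 CPM in the roof at 21 hpf. The cdh5 level was 0 in the floor at 28 hpf, against 171 CPM in the floor at 21 hpf. For krt18, the log2 ratio was -8.06 at 28 hpf and -0.92 at 21 hpf, with roof sums of 6676.5 CPM at 28 hpf and 2780.0 CPM at 21 hpf.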

How the data were processed

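RNA of single picked cells was sequenced by Smart-seq2. The values are whole-number counts of reads per gene that the authors deposited as 1 table of 35117 genes; per the submitters' processing notes, Trim Galore and STAR were used with GRCz11 (danRer11), versions and counting settings not given in the sources used here. Floor and roof were taken from the titles. Each cell was thinned to 3500000 reads (seed 1), and thinned reads were summed per region and given as CPM. A gene was measured at 10 CPM in at least 1 region, and called at 2-fold with any 1 cell left out. No embryo is named, so edgeR's and DESeq2's tests were not run, and edgeR 4.0.16 and DESeq2 1.42.0 (R 4.3.3) gave scaling factors only. Counts, ratios and exact Poisson or Clopper-Pearson intervals came from Python 3.11.15 with numpy 2.4.6, scipy 1.17.1 and pandas 2.3.3, and the procedure was tested on simulated data. Of the gene IDs without a name in the counts table, 4701 took one from the reference name tables. List genes were matched by symbol, also through RefSeq synonyms of assembly GRCz12tu, used for names only, and 1055 of 1084 entries were found.

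Genes were named by rule: up to 15 per direction with the largest ratio (50 CPM, 3 in 4 cells, moving at most 1.5 times without any cell), up to 15 by level (4-fold, regions not overlapping), 24 key genes, up to 3 per list and direction at 20 CPM or more, and up to 10 per region at 100 CPM with 50% or more of reads in 1 cell. Other list members given with values were chosen after their values were seen. The members and lists were chosen with earlier results of these data known, and 2 of the 35 lists were written after the values were seen. Alternatives changed depth, scaling, minimum level, summary over cells, fold and the cells used.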

Additional observations from a re-analysis of the deposited data

Results flagged for a closer look

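Of 31 roof values checked, 4 had a highest roof cell far from the other 9 by Dixon's criterion. For normally distributed values, chance meets it in about 1 in 20 groups. Levels of single cells, some without a read, are not normally distributed, so that rate does not apply to them. For gata2b, roof cell 2 had 233 CPM and the next roof cell 90.9 CPM. For tal1 it was again roof cell 2, at 584 CPM, with the next at 123 CPM. Roof cell 5 had 223 CPM of gfi1aa, with the next, roof cell 2, at 115 CPM. The scavenger receptor gene stab2 was at 1207 CPM in roof cell 6, with the next roof cell at 341 CPM. Groups of 12 floor cells were not examined in this way.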

How the results depend on the processing

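Each region counted as 1 sample, region and title part cannot be told apart, and depth limits what a cell at 0 shows. The floor of 3 reads was set over the summed reads of a region, not for a single cell. No paired analysis was possible because floor and roof titles share no replicate number and no test was made. Across settings the directions of the hemogenic, arterial and Notch, pan-endothelial and erythroid medians were as given in the report.

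Genes called higher numbered 1086 at a minimum of 50 CPM and 1369 at 4-fold, and genes called lower 1099 at 50 CPM. Leaving out each cell gave 2048 to 2312 higher and 2321 to 2534 lower genes. The higher share of the called genes was 61.9% (2813 higher, 1733 lower) without roof title part 3, 38.1% (1658 and 2695) without erythroid-rich floor cells, 34.5% (1489 and 2821) also without the muscle-rich cell and 36.9% (1692 and 2896) with floor title part M12 alone. Genes with every floor cell above every roof cell numbered 17 with TMM factors, 47 without erythroid-rich cells, 53 also without the muscle-rich cell, 76 without M12, 85 with M12 alone, 47 without roof part 3 and 55 with it alone, and 27 to 40 with each cell left out. Genes with every roof cell above numbered 392 with roof part 3 alone and 153 to 205 with each cell left out. Fewer cells make separation easier by construction.

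The hemogenic median was 3.59 from medians of cells, 2.71 without M12, 1.21 with M12 alone and 2.82 with roof part 3 alone, and 1.87 to 2.82 with each cell left out, the highest without roof cell 2. The arterial and Notch median was -8.22 from all reads, -8.28 from mean CPM, -6.07 at 200000 reads, -5.97 with 1 CPM added, -9.10 without erythroid-rich cells, -8.91 also without the muscle-rich cell, -9.74 without M12, -8.32 with M12 alone and -8.32 with roof part 3 alone, and -8.59 (without floor cell 5) to -7.50 with each cell left out. The pan-endothelial median was -6.26 at 200000 reads, -6.69 with 1 CPM added, -8.20 from medians of cells, -9.37 without erythroid-rich cells, -9.29 also without the muscle-rich cell and -11.34 without M12, and -10.35 to -9.76 with each cell left out. The erythroid median was 9.69 from mean CPM, 5.83 at 200000 reads, 9.83 at 50 CPM, 5.89 with 1 CPM added, 5.84 from medians of cells, 1.32 without erythroid-rich cells, 0.91 also without the muscle-rich cell and 7.58 without M12, and 7.92 (without floor cell 11) to 9.39 with each cell left out. The bounds of genes at 0 reads move with depth and with the value added.

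The muscle list median turned to -3.54 from medians of cells, -3.64 without floor cell 6 (9.22 without floor cell 4, the highest with a cell left out), -4.18 without muscle-rich and erythroid-rich cells and -6.42 with M12 alone. With M12 alone, sox32 turned to -1.18 and eno1a to -0.55. Of the remaining gene values under all settings, 3726 kept direction and call, 202 lost the call and 39 gained it. The cause was not tested.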

Other observations

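Within the floor, myb was unevenly placed by title part, with floor cell 12 counted in M12 from its description. The 6 floor cells of parts M8, M9, M10 and M11 had 841 to 2609 CPM of myb, and the 6 of part M12 had 31.4 to 1584 CPM, of which 4 were below 229 CPM. The erythroid-rich cells 7, 10 and 11 are of part M12 and cell 5 of part M10, but erythroid shares did not divide by part. Cells 8, 9 and 12, also of M12, had 0.0594%, 0.0456% and 0.118% of their counts on erythroid genes. Cell 6 of part M11 had 0.817%. The nuclease gene dnase1l4.1 had no overlap between the regions, at 294 to 18202 CPM in floor cells (median 3852), and was found in 1 roof cell, at 16.3 CPM.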
